A study of Homo sapiens with 6 samples.

Results

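The genes for aminoacyl-tRNA synthetases were followed in Kasumi-1 cells treated with homoharringtonine (HHT). The list held 37 genes, 21 counted as cytosolic (2 of them, AIMP1 and AIMP2, for scaffold proteins of the cytosolic multisynthetase complex) and 16 as mitochondrial. A gene was measured where a probe set on the array was annotated to that gene alone. This gave 33 of the 37 genes, 18 cytosolic and 15 mitochondrial, among 13572 genes in all. MARS1, QARS1, AIMP2 and TARS2 had no such probe set and were not analysed here. The 33 genes had 70 probe sets, of which 61 passed the filter on low signal, and every one of the 33 genes kept at least 1.

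Kasumi-1 is an established human line of acute myeloid leukaemia with the translocation that fuses RUNX1 to RUNX1T1. HHT, an alkaloid of plum yews, stops ribosomes early in elongation. All 6 samples were this 1 line; 3 received vehicle and 3 received 20 nM HHT, each for 24 h. RNA was hybridised to one-colour Affymetrix 3' expression arrays, and all levels below are log2 signals of 1 probe set. Whether the 3 arrays of a group are separate cultures is not in the labels; p-values therefore cover only the spread between these arrays, which may be technical. The series title ties HHT to MYC and to NF-kB repressing factor.

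An aminoacyl-tRNA synthetase joins an amino acid to its transfer RNA, the step at which the genetic code is read into protein chemistry. Human cells make a set for the cytosol and another, nuclear-encoded, for the mitochondrion, whose ribosomes translate the few proteins of the mitochondrial genome. In most cases the cytosolic and the mitochondrial enzyme for an amino acid come from separate genes; GARS1 and KARS1 each serve both compartments. Several cytosolic enzymes sit in a multisynthetase complex held together by AIMP proteins. Many cytosolic synthetase genes are known targets of ATF4, the transcription factor of the integrated stress response, and MYC is known to drive genes of protein synthesis.

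Cytosolic synthetase genes were mostly lower after HHT, and mitochondrial ones went both ways. Of the 18 cytosolic genes, 12 fell, 1 rose and 5 were not called, with a median change of -0.33. Of the 15 mitochondrial genes, 6 fell, 4 rose and 5 were not called, with a median of -0.08. The call was an adjusted p below 0.05 in a limma fit over all 32768 probe sets tested. Over all genes 24.2% were called lower, 29.6% higher and 53.8% either way, with a median change close to 0 (-4.15e-05). The groups did not overlap for 14 cytosolic and 11 mitochondrial genes, which compares with 62.2% of all genes. The difference between the mitochondrial and the cytosolic median was 0.25. On single arrays, taken as the deviation of each gene from its vehicle mean, the cytosolic median lay between -0.03 and 0.08 in vehicle and at -0.34 to -0.35 in HHT. The mitochondrial median lay between -0.02 and 0.04 in vehicle and between -0.09 and 0.07 in HHT. On the deposited scale, the 3 HHT arrays were nearly equal in the cytosolic list and below every vehicle array, while the mitochondrial ranges overlapped. Vehicle deviations centre near 0 by construction, and the cytosolic median change depended on the scaling of the arrays, as given below.

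**Figure D1:**
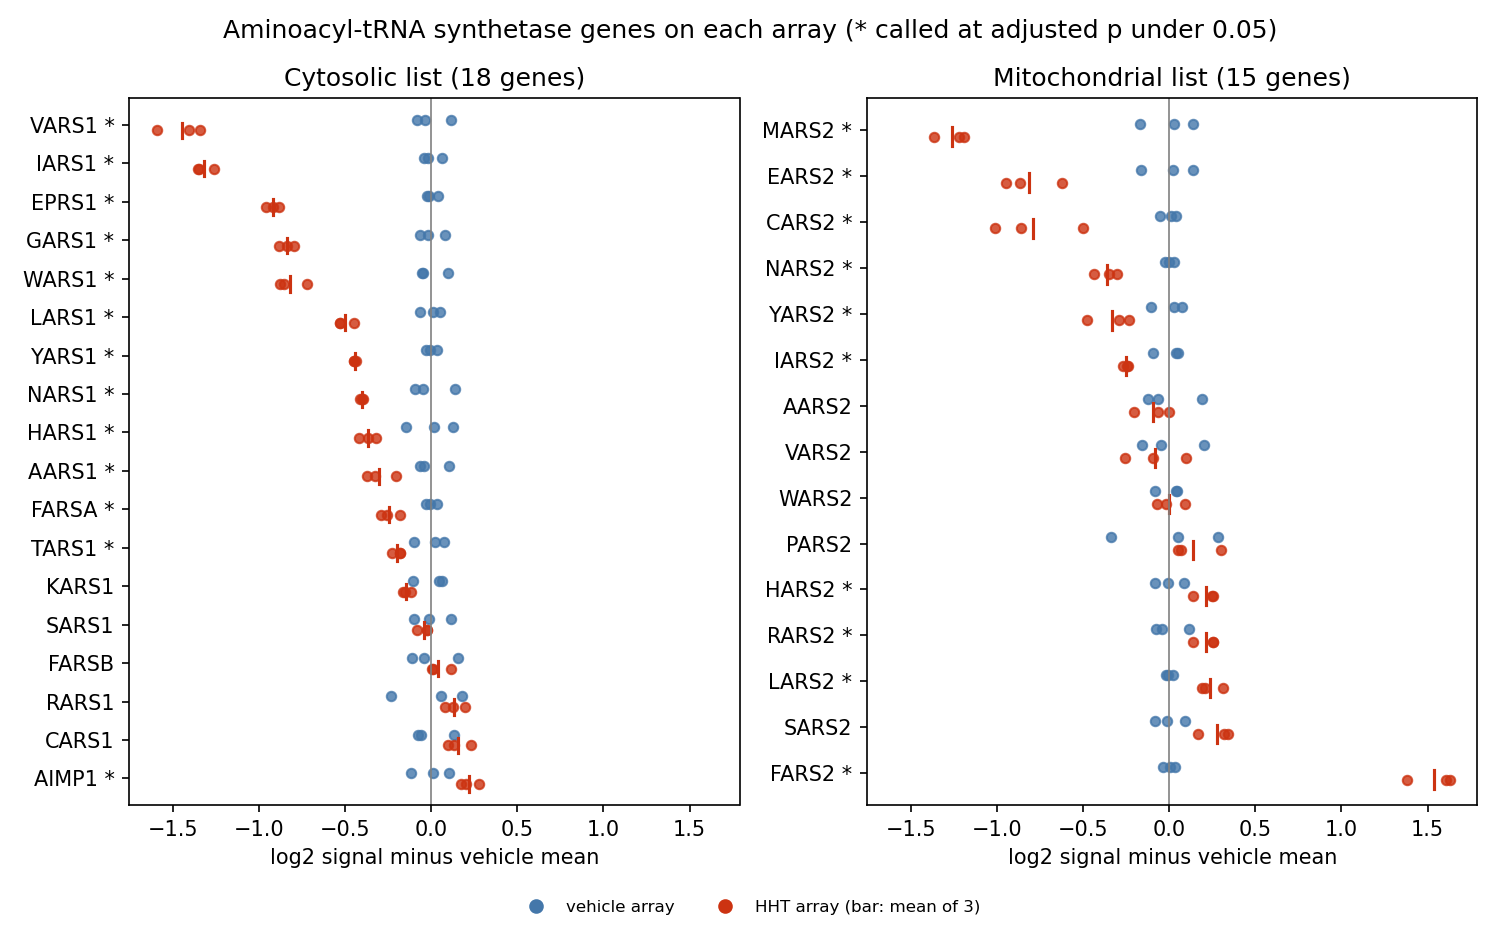
The log2 signal of each measured gene on each array, relative to the gene's mean over the 3 vehicle arrays (blue, vehicle; red, HHT; red bar, mean of 3 HHT arrays), with an asterisk at genes called at an adjusted p under 0.05. VARS1, IARS1, EPRS1, GARS1, WARS1, MARS2, EARS2 and CARS2 lie far left of their vehicle arrays, FARS2 lies far right, and the remaining genes are spread between them.

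These counts moved with the scaling of the arrays. With each array set to an equal median, the median of all genes moved to 0.24, and with equal hybridisation controls to 0.28. In the first case 5 cytosolic genes fell and 4 rose (mitochondrial, 3 fell and 5 rose), and in the second 6 fell and 5 rose (mitochondrial, 3 fell and 5 rose). Over all genes 12.7% were called lower and 37.3% higher in the first case, and 12.8% and 41.6% in the second. The cytosolic median then stood at -0.10 and -0.05 and the mitochondrial at 0.15 and 0.20, so the sign of the mitochondrial median turned. After quantile normalization the medians were -0.33 and -0.18. The difference between the lists stayed at 0.25 under both shifts, which cancel in it, and was 0.15 after quantile normalization. It was 0.12 without vehicle replicate 1. Across 19 alternative settings, 9 genes kept their call and direction in every one: VARS1, IARS1, EPRS1, GARS1 and WARS1 of the cytosolic list and MARS2, EARS2 and CARS2 of the mitochondrial list were called lower each time, and FARS2 was called higher each time. The share of all genes on the array that kept a call in every setting was not counted.

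**Figure D2:**
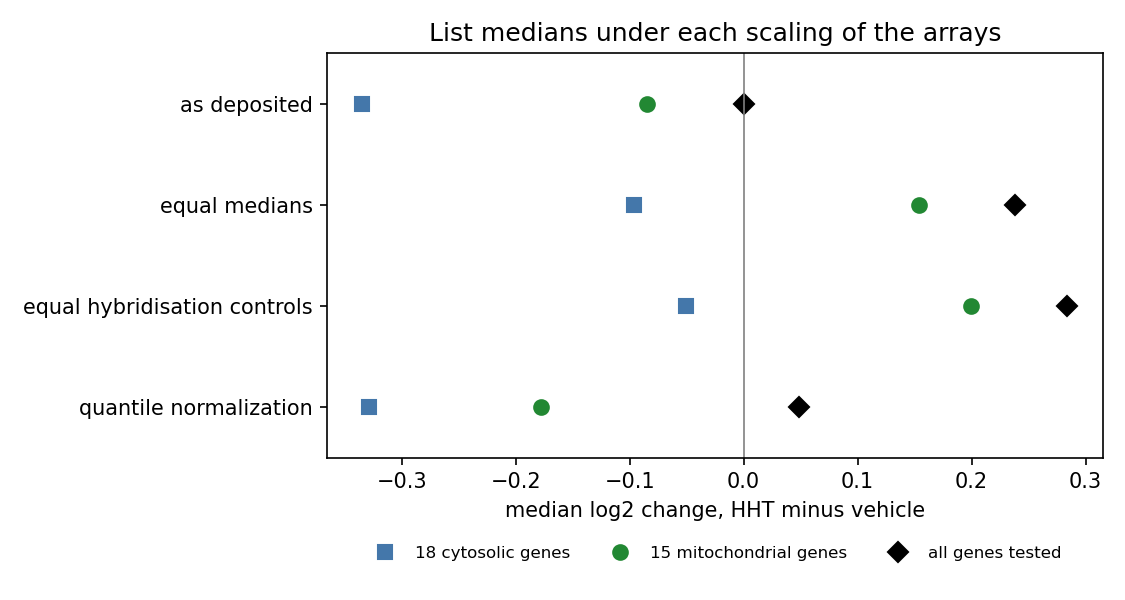
Median log2 change, HHT minus vehicle, of the 18 cytosolic genes (squares), the 15 mitochondrial genes (circles) and all genes tested (diamonds) under 4 scalings of the arrays. The cytosolic median lies left of the mitochondrial one and of all genes in each row, while the place of 0 depends on the scaling.

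The largest falls among cytosolic genes were those of VARS1 and IARS1, which charge the branched-chain amino acids valine and isoleucine. VARS1 stood at 9.44, 9.40 and 9.59 in vehicle and at 8.14, 7.89 and 8.07 in HHT. It fell by 1.45 (SE 0.118, limma adjusted p = 3.39e-06), a 2.73-fold lower signal. IARS1, a member of the multisynthetase complex, stood at 14.55, 14.47 and 14.45 in vehicle and 13.14, 13.15 and 13.23 in HHT. It fell by 1.32 (SE 0.0525, limma adjusted p = 4.23e-08), a 2.50-fold lower signal. For both genes every HHT array was more than 1 log2 unit below every vehicle array.

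EPRS1 joins glutamate and proline through 2 catalytic parts of a single protein, and belongs to the same complex. Its signal was 12.63, 12.57 and 12.58 in vehicle and 11.71, 11.63 and 11.68 in HHT, and it fell by 0.92 (SE 0.0558, limma adjusted p = 4.85e-07). A second EPRS1 probe set fell by 0.50, and a dimmer one, at -0.31, was not called. GARS1, the glycine enzyme of both compartments, stood at 13.66, 13.56 and 13.51 in vehicle and 12.74, 12.70 and 12.78 in HHT, and fell by 0.84 (SE 0.0569, limma adjusted p = 9.99e-07). WARS1, the tryptophan enzyme and also known as an interferon-induced gene, stood at 10.94, 10.80 and 10.79 in vehicle and 9.96, 9.99 and 10.12 in HHT. It fell by 0.82 (SE 0.0810, limma adjusted p = 1.33e-05), and its other probe set fell by 1.09. LARS1, the leucine enzyme of the complex, went from 12.85, 12.93 and 12.96 to 12.38, 12.46 and 12.39 and fell by 0.50 (SE 0.0565, limma adjusted p = 3.33e-05). Its other probe sets fell by 0.33 and 0.78, and the dimmest, at 0.26, was not called. On the brightest probe set, the groups overlapped in none of these 4 genes. The LARS1 call was lost with equal medians (-0.26, adjusted p = 0.0662).

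The other 6 cytosolic genes that fell did so by less: YARS1 (tyrosine) by 0.44, NARS1 (asparagine) by 0.40, HARS1 (histidine) by 0.37, AARS1 (alanine) by 0.30, FARSA (the alpha subunit of the phenylalanine enzyme) by 0.24 and TARS1 (threonine) by 0.20. None of these 6 was called lower with equal medians or with equal hybridisation controls, where their values ran from -0.21 (YARS1) to 0.09 (TARS1). After quantile normalization TARS1 was called higher (0.14, adjusted p = 0.0338). A dim second TARS1 probe set rose by 1.11 on the deposited scale, against the fall of the brighter one. The TARS1 call was also lost without vehicle replicate 2 and without HHT replicate 1, and the NARS1 call after quantile normalization (-0.03).

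HARS1 and FARSA are the partners of mitochondrial genes that rose. HARS1 stood at 11.07, 10.80 and 10.96 in vehicle and 10.53, 10.62 and 10.58 in HHT. FARSA stood at 11.46, 11.43 and 11.40 in vehicle and 11.14, 11.18 and 11.25 in HHT. Neither gene had overlapping groups. A second FARSA probe set, at -0.17, was not called.

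The 5 cytosolic genes not called were KARS1 (-0.14), SARS1 (-0.04), FARSB (0.04), RARS1 (0.13) and CARS1 (0.15). KARS1, the lysine enzyme of both compartments, had groups that did not overlap, at 14.40 to 14.57 in vehicle and 14.34 to 14.39 in HHT, and an adjusted p of 0.0541 from limma. Its value was above 0 under equal medians (0.09) and equal hybridisation controls (0.14), not called in either, and it was called higher after quantile normalization (0.24, limma adjusted p = 0.000604). It was called lower without vehicle replicate 2 (-0.20, limma adjusted p = 0.0133). CARS1, the cysteine enzyme, stood at 13.16, 12.97 and 12.95 in vehicle and 13.26, 13.16 and 13.12 in HHT, so its groups overlapped. It was called higher under each of the other 3 scalings (0.39 to 0.44) and without vehicle replicate 1 (0.22). A second CARS1 probe set rose by 0.49 on the deposited scale, and the other 2, at 0.44 and -1.39, were not called. RARS1, the arginine enzyme of the complex, was likewise called higher under the other 3 scalings (0.37, 0.42 and 0.25). FARSB was called higher under equal medians (0.28) and equal hybridisation controls (0.33), and SARS1, the serine enzyme, under the second of these (0.24). FARSB, the beta subunit of the phenylalanine enzyme, had a dimmer probe set of suffix _x_at that fell by 1.59, a suffix that marks probes shared with other sequences. With the mean of its probe sets FARSB was called lower (-0.77).

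AIMP1, a scaffold protein of the complex, was the cytosolic gene that rose. It stood at 12.15, 11.93 and 12.06 in vehicle and 12.22, 12.33 and 12.25 in HHT, a rise of 0.22 (SE 0.0692, limma adjusted p = 0.0245). Its other 2 probe sets disagreed, as 1 rose by 0.44 and 1 fell by 0.36. Leaving out 1 array ended the limma call in 3 of 6 cases: vehicle 2, with an adjusted p of 0.0931, HHT 2, with 0.103, and HHT 3, with 0.0522. Of the 6 measured genes of the complex, 3 fell and 1 rose, with a median of -0.32, and of the 12 cytosolic genes outside it 9 fell, with a median of -0.33. Class I and class II enzymes, which bind ATP in unrelated folds, gave cytosolic medians of -0.50 (5 of 7 fell) and -0.24 (6 of 9 fell), with EPRS1, which holds both folds, left out. The mitochondrial medians were -0.25 for class I (5 of 9 fell, 2 rose) and 0.18 for class II (1 of 6 fell, 2 rose). The part of enzyme class in the difference between the lists was not tested.

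Among mitochondrial genes FARS2, the phenylalanine enzyme, rose most. Its signal was 9.27, 9.31 and 9.34 in vehicle and 10.91, 10.69 and 10.93 in HHT. It rose by 1.54 (SE 0.0893, limma adjusted p = 3.73e-07), a 2.90-fold higher signal, and its other probe set rose by 1.02. The values under the 19 alternatives lay between 1.28 and 1.82. No other measured synthetase gene had a positive change above 0.28 on the deposited scale.

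The other 3 mitochondrial genes that rose did so by less. LARS2 (leucine) stood at 11.39, 11.44 and 11.40 in vehicle and 11.72, 11.62 and 11.60 in HHT, and rose by 0.24 (SE 0.0622, limma adjusted p = 0.00960). RARS2 (arginine) stood at 10.77, 10.81 and 10.96 against 10.98, 11.10 and 11.10, a rise of 0.22 (SE 0.0759, limma adjusted p = 0.0381). HARS2 (histidine) stood at 10.25, 10.16 and 10.09 against 10.42, 10.42 and 10.30, a rise of 0.21 (SE 0.0801, limma adjusted p = 0.0492). The groups did not overlap in these genes. A second LARS2 probe set, at 0.11, was not called. Of the other RARS2 probe sets, 1 rose by 0.48 and a dim one, at -0.29, was not called. The LARS2 call was lost only with no variance trend (limma adjusted p = 0.0600), while the HARS2 call was lost in 10 of 19 alternatives and the RARS2 call in 9. For HARS2 these include the fits that left out vehicle array 2, vehicle array 3 or any HHT array (limma adjusted p from 0.0515 to 0.149). For RARS2 they include those that left out vehicle array 1, vehicle array 2, HHT array 2 or HHT array 3 (limma adjusted p from 0.101 to 0.123). Both were called under both equal medians and equal hybridisation controls.

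MARS2, the methionine enzyme, fell most in the mitochondrial list. Its signal was 9.47, 9.16 and 9.36 in vehicle and 8.14, 8.11 and 7.97 in HHT, and it fell by 1.26 (SE 0.122, limma adjusted p = 1.14e-05), a 2.39-fold lower signal. EARS2 (glutamate) went from 8.98, 8.80 and 9.10 to 8.09, 8.34 and 8.01 and fell by 0.81 (SE 0.136, limma adjusted p = 0.000574). Its other probe sets fell by 1.31 and 1.26, and the dimmest, at -1.20, was not called. CARS2 (cysteine) went from 10.43, 10.50 and 10.53 to 9.98, 9.62 and 9.48, which left HHT replicate 1 above the other HHT arrays, and fell by 0.79 (SE 0.121, limma adjusted p = 0.000298). A second CARS2 probe set fell by 1.00, and a dimmer one, at 0.33, was not called. NARS2 (asparagine) went from 10.86, 10.83 and 10.81 to 10.40, 10.48 and 10.53 and fell by 0.36 (SE 0.0703, limma adjusted p = 0.00152). In these 4 genes the groups did not overlap. YARS2 (tyrosine) fell by 0.33 and IARS2 (isoleucine) by 0.25; the NARS2, YARS2 and IARS2 calls were lost with equal medians and equal hybridisation controls. AARS2 (-0.09), VARS2 (-0.08), WARS2 (0.00), PARS2 (0.14) and SARS2 (0.28) were not called on the deposited scale. SARS2, the serine enzyme, had groups that did not overlap and was called higher under both equal medians and equal hybridisation controls (0.52 and 0.56).

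For 15 pairs of a cytosolic and a mitochondrial gene of the same amino acid, the difference in signal was taken on each array, so that a shift of a whole array cancels. The change of this difference, mitochondrial minus cytosolic, was above 0 in 14 of 15 pairs, with a median of 0.58. In 10 pairs the 3 vehicle and 3 HHT differences did not overlap, 9 of them toward the mitochondrial gene and 1, cysteine, toward the cytosolic gene. Among single genes the groups did not overlap for 62.2% of all genes, and the share among other pairs of genes was not counted. EPRS1 and FARS2 enter 2 pairs each, so the pairs are not independent. Each of these 10 had an exact two-sided permutation p of 0.1, the smallest that 3 against 3 arrays allow, and 0.15 after Benjamini-Hochberg adjustment over the 15 pairs.

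The largest differences were 1.78 ± 0.0864 (SE, n = 3 per group) for FARS2 against FARSA and 1.5 ± 0.123 (SE, n = 3) for FARS2 against FARSB. For valine the difference was 1.36 ± 0.0740 (SE, n = 3), from a fall of VARS1 beside VARS2 at -0.08. For isoleucine it was 1.07 ± 0.0542 (SE, n = 3), although IARS2 also fell, and for PARS2 against EPRS1 it was 1.06 ± 0.194 (SE, n = 3). Tryptophan gave 0.82, leucine 0.74 and histidine 0.58. Leucine and histidine, with phenylalanine, were the amino acids with a cytosolic gene that fell and a mitochondrial gene that rose on the deposited scale. Cysteine gave -0.94 ± 0.147 (SE, n = 3), as CARS2 fell beside CARS1 at 0.15. In 5 pairs the groups overlapped: alanine (0.21), tyrosine (0.11), EARS2 against EPRS1 (0.11), arginine (0.08) and asparagine (0.04). After quantile normalization asparagine (-0.43), arginine (-0.12) and tyrosine (-0.06) turned sign.

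**Figure D3:**
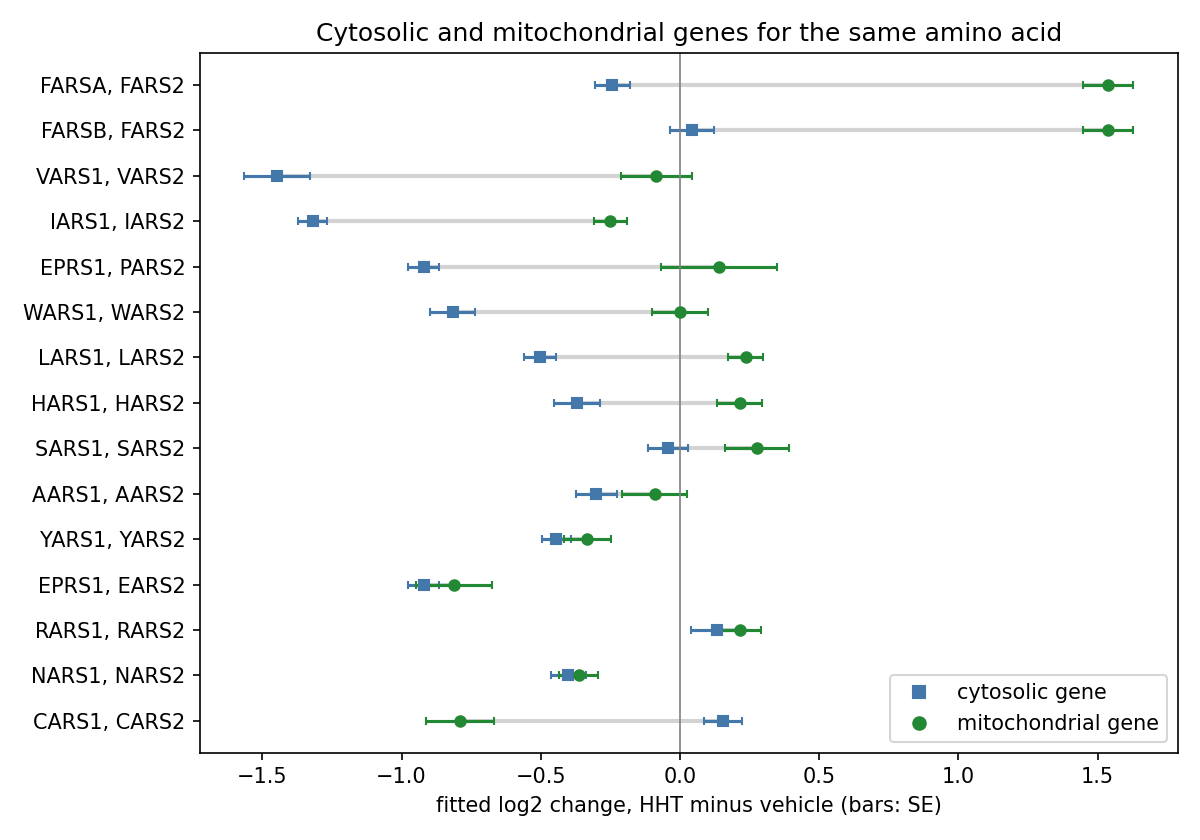
Fitted log2 change, HHT minus vehicle, of the cytosolic gene (square) and the mitochondrial gene (circle) for the same amino acid, with SE bars from the limma fit. The mitochondrial gene lies to the right in every row other than CARS1 and CARS2, and FARS2 stands apart at 1.54.

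The 2 histidine genes lie head to head on chromosome 5. In the RefSeq promoter table (GRCh38.p14) transcription of HARS1 starts at 140691370 on the minus strand and that of HARS2 at 140691455 on the plus strand. The 84 bases between the starts, chr5:140691371-140691454 on the plus strand, are shown because both genes, 1 of which fell while the other rose on the deposited scale, are read outward from them. No motif is marked in capitals, as neither motif searched here lies in them.
HARS1-HARS2: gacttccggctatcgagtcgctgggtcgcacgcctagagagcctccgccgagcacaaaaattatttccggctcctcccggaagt

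FARS2 also shares such a stretch, of 56 bases, with LYRM4, a gene of mitochondrial iron-sulfur cluster assembly. LYRM4 fell by 0.48 (limma adjusted p = 0.000668) where FARS2 rose by 1.54; with equal medians LYRM4 was at -0.25 and not called. SARS2 starts 180 bases from MRPS12, a mitochondrial ribosomal protein gene, which fell by 0.58 beside SARS2 at 0.28. AIMP1 starts 340 bases from TBCK, which rose by 2.14 beside the rise of 0.22 in AIMP1. Of the 12 listed genes with a start on the other strand within 1000 bases upstream, 9 had both genes measured, HARS1 and HARS2 each being counted. Opposite calls were seen for 3 pairs of genes on the deposited scale: HARS1 with HARS2, FARS2 with LYRM4, and EARS2 with UBFD1. Those of HARS1 and HARS2 held under none of the other 3 scalings, those of FARS2 and LYRM4 only after quantile normalization, and those of EARS2 and UBFD1 only under equal medians and equal hybridisation controls. WARS1, called lower, faced WDR25 at 1.75, not called (limma adjusted p = 0.0541). Under each of the other 3 scalings WDR25 was called higher and WARS1 lower. SARS2 was called higher and MRPS12 lower under equal medians and equal hybridisation controls. The share of opposite calls among all such gene pairs on the array was not counted. AIMP1 with TBCK, and RARS2 (0.22) with ORC3 (0.34), were called higher together.

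Promoter windows of 300 bases, 250 before to 50 after each start, were found for 32 of the 37 listed genes, 28 of them measured. VARS1, YARS1, LARS1, AARS2 and VARS2 had no entry. The windows were searched on both strands for CACGTG, the E-box to which MYC with MAX is known to bind, and for TGATGNAA (TTNCATCA on the other strand), the C/EBP-ATF element to which ATF4 is known to bind. The motifs do not overlap each other. Of the 32 genes, 5 (16%) held the E-box, against 8.77% of 27305 genes with a window, and 8 (25.0%) held the C/EBP-ATF element, against 4.46%. Counting measured genes only, 4 synthetase genes held the E-box and 24 did not, beside 1342 and 9581 over all genes. This brings the E-box shares close together. For the C/EBP-ATF element these counts were 7 and 21, beside 324 and 10599. A match is a description of letters in a window, not a shown binding site.

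The 4 measured genes with an E-box are shown because all of them are among the 9 genes that kept their call in every setting. They are IARS1 (chr9:92293866-92293895, minus strand), MARS2 (chr2:197705346-197705375, plus strand), EARS2 (chr16:23557348-23557377, minus strand) and CARS2 (chr13:110706501-110706530, minus strand). Each stretch is 30 bases on the gene's strand, with the E-box in capitals.
IARS1: tggttcgttttcCACGTGgaggcgcaaaac
MARS2: atgcgcctctcaCACGTGctgtcagaacgc
EARS2: cagggagaagccCACGTGtgctattccatc
CARS2: tgctgggatgcaCACGTGcttcgctaacag

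These 4 genes fell by 0.79 to 1.32, with a median of -1.04. The 24 measured genes with a window and no E-box had a median of -0.09, and 11 of them fell and 5 rose. Measured genes without a window are in neither group: VARS1 (-1.45), LARS1 (-0.50) and YARS1 (-0.44) fell, and AARS2 and VARS2 were not called. EPRS1, GARS1 and WARS1 fell by 0.82 to 0.92 with no E-box in the window. Over all genes, 33.9% of 1342 with an E-box were called lower against 23.4% of 9581 without, with medians of -0.11 and 0.03. The same shares were 19.1% and 11.7% with equal medians and 34% and 21.8% after quantile normalization. MYC itself fell by 4.40 (SE 0.0958, limma adjusted p = 5.29e-09), and its partner MAX by 0.65. Whether these falls bear on the synthetase genes was not tested.

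The C/EBP-ATF element is shown because the cytosolic list holds it more often than the mitochondrial one, in 7 of 18 genes with a window (38.9%) against 1 of 14 (7.14%). A test of this difference was not made. The element is in capitals in 30 bases on the gene's strand; MARS1, also a holder, was not measured. The places are IARS1 (chr9:92293692-92293721, minus strand), GARS1 (chr7:30594834-30594863, plus strand), NARS1 (chr18:57621804-57621833, minus strand), YARS2 (chr12:32756076-32756105, minus strand), AARS1 (chr16:70289675-70289704, minus strand), TARS1 (chr5:33440956-33440985, plus strand) and CARS1 (chr11:3057407-3057436, minus strand).
IARS1: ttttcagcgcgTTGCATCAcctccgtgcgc
GARS1: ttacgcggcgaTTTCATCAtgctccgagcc
NARS1: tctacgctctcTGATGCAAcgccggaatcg
YARS2: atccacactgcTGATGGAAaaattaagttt
AARS1: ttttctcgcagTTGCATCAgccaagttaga
TARS1: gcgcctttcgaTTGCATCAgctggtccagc
CARS1: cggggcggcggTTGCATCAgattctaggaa

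These 7 genes spread from -1.32 (IARS1) to 0.15 (CARS1), with a median of -0.33, and 6 fell and CARS1 was not called. With equal medians or equal hybridisation controls only IARS1 and GARS1 of them stayed called lower, and CARS1 was called higher. The 21 measured genes with a window and no such element had a median of -0.04, and 9 of them fell and 5 rose. Over all genes, 24.7% of 324 with the element and 24.7% of 10599 without it were called lower. The difference was not tested. The mean ATF4 signal was 14.10 ± 0.118 with vehicle and 13.95 ± 0.0473 with HHT (SD, 3 arrays each). It differed by -0.15 (SE 0.0636, limma adjusted p = 0.0843) and was not called. It was called higher after quantile normalization (0.21) and lower with array weights (-0.17, limma adjusted p = 0.0406) and without vehicle replicate 1 (-0.18, limma adjusted p = 0.0389). Under equal medians (0.09) and equal hybridisation controls (0.14) it was not called.

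**Figure D4:**
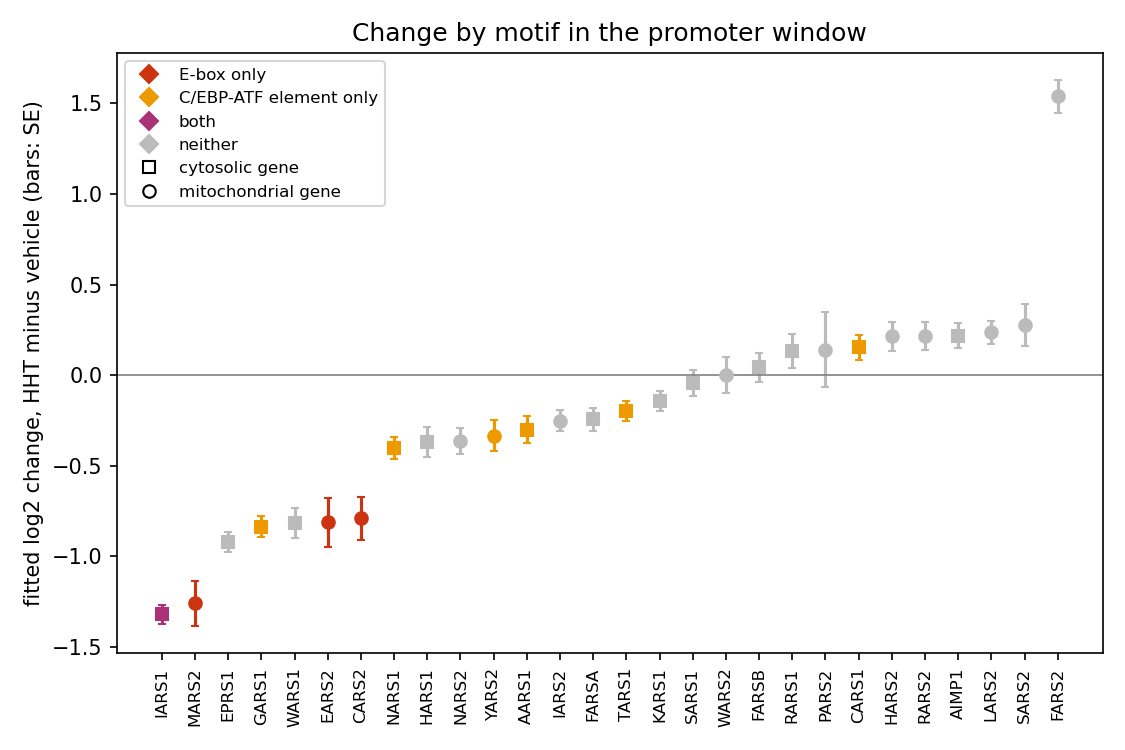
Fitted log2 change, HHT minus vehicle, of the 28 measured genes with a promoter window, in order of change, with SE bars from the limma fit; colour marks the motif found and shape the compartment. The 4 genes with an E-box (red, and purple for IARS1, which holds both) lie between -1.32 and -0.79, and genes with the C/EBP-ATF element alone (orange) between -0.84 and 0.15.

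Other genes that act on tRNA charging went both ways. Of 12 listed, 8 were measured, of which 5 rose and 2 fell, with a median of 0.34, beside 29.6% higher and 24.2% lower over all genes. With equal medians 6 rose and 1 fell, beside 37.3% and 12.7% over all genes. SEPSECS, which makes selenocysteine on its tRNA, rose by 2.31 (SE 0.0905, limma adjusted p = 3.94e-08), from 9.50 ± 0.144 to 11.81 ± 0.0961 (SD, n = 3). PSTK, the kinase of the step before it, rose by 0.96 (SE 0.139, limma adjusted p = 0.000204), from 7.94 ± 0.170 to 8.91 ± 0.153 (SD, n = 3). DTD2, which removes wrongly joined amino acids from tRNA, fell by 1.38 (SE 0.0857, limma adjusted p = 5.67e-07). The 3 rises left were those of GATB (0.64), QRSL1 (0.38) and GATC (0.29), the subunits of the enzyme that makes glutaminyl-tRNA in mitochondria. GATC was not called after quantile normalization, and GATB, QRSL1, SEPSECS, PSTK and DTD2 were called in the same direction under each of the other 3 scalings.

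Of 22 listed genes of tRNA maturation and export 20 were measured, of which 13 fell and 4 rose, with a median of -0.35, beside 24.2% lower and 29.6% higher over all genes. With equal medians 9 fell and 6 rose, beside 12.7% and 37.3% over all genes. POP1, a subunit of RNase P, fell by 2.39 (SE 0.160, limma adjusted p = 8.86e-07), from 9.48 ± 0.140 to 7.09 ± 0.267 (SD, n = 3). PUS1, a pseudouridine synthase, fell by 1.08, and XPOT, the export receptor of tRNA, by 0.87. ELAC1, a tRNA 3' end nuclease, rose by 1.57 (SE 0.0805, limma adjusted p = 1.79e-07), and its mitochondrial and nuclear relative ELAC2 fell by 0.81. A further list of 12 held sensors and regulators of synthetase genes and also ASNS and PSAT1, which are neither. Of these 12, 8 fell, ASNS and PSAT1 among them, and 1 rose, with a median of -0.54, beside 24.2% and 29.6% over all genes. With equal medians 6 fell and 1 rose, beside 12.7% and 37.3%. GCN1, the ribosome-bound activator of the sensor of uncharged tRNA, fell by 0.99, while that sensor, EIF2AK4, was at -0.07 and not called. ASNS and PSAT1, amino acid synthesis genes known as ATF4 targets, changed by -1.82 and -1.88, both called. DDIT3, a stress-induced transcription factor, rose by 1.16, and TRIB3, of the same list, fell by 1.32.

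Array medians were 5.96, 5.86 and 5.82 in vehicle and 5.77, 5.62 and 5.53 in HHT, and hybridisation controls averaged 11.96 to 12.01 and 11.63 to 11.75. Both moved with the treatment. Of the measured synthetase genes, 15 of 18 cytosolic and 2 of 15 mitochondrial belonged to the brightest of 4 equal groups of genes by mean signal. In that group 41.1% of genes were called lower and 34.4% higher. In the next group, with 2 cytosolic and 9 mitochondrial genes, 28.7% were lower and 44.5% higher. The part of probe set brightness in the difference between the lists was not tested. As RNA came from whole cultures, fewer expressing cells and less RNA per cell cannot be told apart. Blood markers KIT (14.83 ± 0.133 in vehicle, SD, n = 3) and MPO (14.39 ± 0.0765, SD, n = 3) were bright, with 8 of 10 such markers passing the filter. The rest of the 8 had vehicle means from 4.81 ± 1.37 (SPI1) to 12.43 ± 0.0441 (PTPRC) (SD, n = 3). That of SPI1 lay among the dim markers of other cell types below. Of the 8 blood markers, MPO (-1.76), CD34 (-1.18) and KIT (-0.62) fell and PTPRC (0.77) rose, and their part in these results was not tested. Of 12 markers of other cell types 8 also passed; EPCAM (13.69 ± 0.0216, SD, n = 3) and CD3D (11.62 ± 0.0197, SD, n = 3) were bright and the other 6 had vehicle means from 4.56 to 6.87. EPCAM fell by 0.76, and its part in these results was not tested.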

How the data were processed

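RNA from 6 Kasumi-1 samples was measured on one-colour arrays, 3 with vehicle and 3 with HHT. The authors deposited a log2 value for each of 54675 probe sets. Per the submitters' processing notes the tool was MAS5, with no version. The antilog values had a trimmed mean of 500.06 to 500.07 on each array. Leaving out 62 control probe sets and the lowest 40% by mean (level 4.80) left 32768. Of the probe sets, 41091 had 1 gene symbol in the platform annotation, updated by Entrez ID, and 1801 had several and named no gene. A gene was represented by its brightest single-symbol probe set. limma 3.58.1 in R 4.3.3 (lmFit, eBayes with a variance trend) compared the groups, with Benjamini-Hochberg adjustment over all probe sets tested. SE are from the fit, or, for pairs, from the arrays.

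The members, lists, motifs and alternatives were chosen with earlier results of these data known. Values on every array are given for the 6 cytosolic and 5 mitochondrial called genes of largest change for genes called against the majority of their list and for amino acids whose 2 genes were called opposite ways; others in full were picked after their values were seen. Of the other lists, at most the 3 genes of largest change, MYC and ATF4 were fixed by rule, and further ones were added after seeing them. The fit was tested on simulated data. Sequences are from RefSeq (GRCh38.p14); the sources used here give no build for the arrays. The number of arrays limits precision. Same-numbered vehicle and HHT arrays had correlations of their deviations of 0.07, -0.01 and 0.05, so the numbers were not taken as pairs.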

Additional observations from a re-analysis of the deposited data

How the results depend on the processing

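The alternatives were equal medians, equal hybridisation controls, quantile normalization, no filter or a 60% filter, pseudocounts of 16 and 64, no or a robust variance trend, weights per array, a replicate block, averaging over probe sets, an adjusted p under 0.01, and leaving out each array. Of 627 values for single members, 535 kept direction and side of the threshold, 49 lost the call, 15 gained one and 28 turned sign, 6 of them of genes called on the deposited scale and 22 of genes not called there. With equal medians 1720 genes in all were called lower; 4 cytosolic genes rose and 5 fell, 3 mitochondrial fell, the medians were -0.10 and 0.15, and TARS1 (0.041), KARS1 (0.094), SARS1 (0.20), AARS2 (0.15), VARS2 (0.15) and ATF4 (0.092) turned. With equal hybridisation controls 1741 genes were called lower; 5 cytosolic rose and 6 fell, 3 mitochondrial fell, the medians were -0.051 and 0.20, and FARSA (0.041), TARS1 (0.087), IARS2 (0.034), KARS1 (0.14), SARS1 (0.24), AARS2 (0.19), VARS2 (0.20) and ATF4 (0.14) turned. Both scalings add an equal amount to every change. Under them 12.7% and 12.8% of all genes were called lower and 37.3% and 41.6% higher. With quantile normalization these shares were 22.95% and 29.8%. After quantile normalization 5 cytosolic and 2 mitochondrial genes rose, the mitochondrial median was -0.18, and the difference 0.15; TARS1 (0.14), KARS1 (0.24), ATF4 (0.21) and WARS2 (-0.092) turned; the pairs of asparagine (-0.43), arginine (-0.12) and tyrosine (-0.057) turned, and the cause was not tested. Mitochondrial genes called higher were 2 with no filter, 1 with no variance trend and 2 at an adjusted p under 0.01; cytosolic genes called higher were 0 with no variance trend, 0 at an adjusted p under 0.01 and 0 without GARS1, KARS1 and AIMP1. With the replicate block, 2 cytosolic genes were called higher (CARS1, at 0.15, was gained) and HARS2 was lost (adjusted p = 0.0502), and no other member's call changed; same-numbered arrays share only a number. From means of probe sets TARS1 was at 0.46 and called higher (adjusted p = 0.000722), FARSB at -0.77 and called lower, CARS1 at -0.078 and WARS2 at -0.034; with array weights WARS2 was at -0.027. Leaving out an array, cytosolic genes called higher ranged from 0 to 2 and lower from 11 to 12, mitochondrial higher from 2 to 3 and lower 6 each time. The cytosolic median ranged from -0.38 to -0.28, the mitochondrial from -0.15 to 0.017 and the difference from 0.12 to 0.36. The mitochondrial median was above 0 without vehicle replicate 3 (0.017) and without HHT replicate 2 (0.0022). Pairs that turned were asparagine (from -0.018, without vehicle replicate 1, to 0.077), arginine (from -0.027, without vehicle replicate 2, to 0.16) and EARS2 against EPRS1 (from -0.0076, without HHT replicate 2, to 0.19). Genes not called that turned were SARS1 (-0.094 to 0.015), FARSB (-0.013 to 0.12), AARS2 (-0.15 to 0.0034), VARS2 (-0.17 to 0.017), PARS2 (-0.027 to 0.28) and WARS2 (-0.045 to 0.035). Non-overlapping pairs ranged from 10 to 11.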
